A study of Mus musculus with 160 samples.

Results

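The transhydrogenase gene *Nnt* and 9 genes of enzymes that remove superoxide and peroxides (*Sod1*, *Sod2*, *Sod3*, *Cat*, *Gpx1*, *Gpx2*, *Gpx3*, *Gpx4* and *Prdx6*) were followed across 160 libraries of mouse distal colon RNA. These 10 genes were named by symbol and matched to the 39179 Ensembl genes of the count tables, and all 10 passed the filter on low counts in each of the 4 mouse lines. Each line carried a knockout of a gene of blood cell signalling or cytoskeleton: *Nckap1l* (line HEM1, labelled strain C57BL6/J, 16 homozygous knockout and 15 wild-type mice), *Dock2* (line DOCK2, C57BL6/J, 18 and 24), *Gpsm3* (line GPSM3, C57BL6/J, 20 and 20) and *Dok3* (line Dok3, labelled strain 129, 26 and 21). The mice were littermates from crosses of heterozygotes, young adults in the study's methods, and the lines had been re-derived with C57BL6/J females. They belonged to a colitis experiment with dextran sulfate sodium (DSS) in drinking water for 5 days. The labels give 3% in the DOCK2 and GPSM3 lines, 3.5% in the Dok3 line and no dose in the HEM1 line. Colon was taken on day 10, or on day 12 in the HEM1 line. The study's methods state a slightly lower dose for *Nckap1l* knockout mice than for the other lines. For *Dok3* knockout mice they state 3% in a first round and 3.5% after it. The labels do not say which mice received DSS, so treated and untreated mice are pooled in every group below. All GPSM3 and Dok3 mice were labelled male, whereas the HEM1 line held 12 females and 19 males and the DOCK2 line 20 females and 22 males.

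Superoxide made by the respiratory chain and by phagocyte oxidases is turned into hydrogen peroxide by superoxide dismutases, and the peroxide is then removed by catalase, by glutathione peroxidases and by peroxiredoxins. The last groups draw their electrons from glutathione and thioredoxin, and thus from NADPH. *Nnt*, in the inner mitochondrial membrane, uses the proton gradient to pass hydride from NADH to NADP+ and so supplies NADPH to the mitochondrial matrix. Mice of the C57BL/6J stock are known for a deletion of internal exons of *Nnt*, and 129 mice are known to carry the intact gene. The mm10 reference is itself C57BL/6J sequence, so reads from those exons of an intact allele have no place in it, and the *Nnt* values here count only the exons that the reference holds.

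Libraries held 4344988 to 19993833 counts, and the member with the fewest counts in a library was *Sod3* with 121. The levels are given as CPM, counts per 1000000, that is, counts scaled by the library total and TMM factor. The knocked-out gene, measured over its whole annotated length, was lower by log2 fold change in all 4 lines, with adjusted p = 0.000100 for *Gpsm3*, 0.182 for *Dock2*, 0.963 for *Nckap1l* and 1.00 for *Dok3* (edgeR's quasi-likelihood test), and knockout and wild-type libraries overlapped in each line, so "knockout" below means the labelled genotype. In 5 libraries of the Dok3 line the sex genes differed from the label, and in 0 of the other 3 lines. Summed skin markers ran from 7.80 to 14401 CPM over the 160 libraries and summed striated muscle markers from 5.50 to 14728 CPM, whereas all 12 epithelial markers were above 0 in every library. The sample numbers in the titles fall into separate runs, 3 in the HEM1 line and 2 each in the GPSM3 and Dok3 lines, and the labels do not say what a run is. The highest correlation between any pair of libraries was 0.993 (log2 CPM over 17208 genes), so none was treated as a duplicate.

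The selenocysteine codon sets the 4 glutathione peroxidases apart from the other 6 members in sequence. In glutathione peroxidases the active site holds selenocysteine, written in the messenger as TGA, which elsewhere stops translation. The annotation marked such a codon in 1 of 3 coding transcripts of *Gpx1*, in the 1 transcript each of *Gpx2* and *Gpx3* and in 3 of 3 of *Gpx4*, and in 0 of those of the other 6 members. The stretches below, read 5′ to 3′ on the coding strand from GENCODE transcripts of GRCm38, are shown because this codon is the feature that ties these 4 genes to selenium supply. The capitals mark the selenocysteine codon and the flanks are 12 bases on either side.
Gpx1, codon 47, chr9:108339451-108339453 (+): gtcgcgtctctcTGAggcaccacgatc
Gpx2, codon 40, chr12:76795256-76795258 (-): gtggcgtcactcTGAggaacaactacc
Gpx3, codon 73, chr11:54907256-54907258 (+): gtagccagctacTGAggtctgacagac
Gpx4, codon 129, chr10:80054737-80054739 (+): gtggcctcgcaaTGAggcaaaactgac
The codon is numbered along the transcript that was read. Over the 24 flanking bases *Gpx1* and *Gpx2* shared 18, *Gpx2* and *Gpx4* shared 16, *Gpx1* and *Gpx4* shared 14, *Gpx3* and *Gpx4* shared 13, and *Gpx3* shared 10 with *Gpx1* and 10 with *Gpx2*. By these flanks *Gpx1* and *Gpx2* were the closest pair and *Gpx3* was the most distant.

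Levels differed over a wide range among the 10 genes. To compare them, CPM was divided by the length of the annotated exons of each gene in kb. *Prdx6* (ENSMUSG00000026701, chr1:161240112-161251219), a peroxiredoxin that also reduces oxidized phospholipids, had by far the most, with a median of 468 CPM per kb over 160 libraries. Its raw level, 288 to 5050 CPM with a median of 2249, ranked 19 among all genes. *Gpx1* (ENSMUSG00000063856, chr9:108338903-108340343), the common cytosolic glutathione peroxidase, followed with 101 CPM per kb, and *Gpx2* (ENSMUSG00000042808, chr12:76792333-76795554), the form of the gut epithelium, with 57.5 CPM per kb. This order of the first 3 held in each of the 4 lines, although over all libraries their ranges overlapped.

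The middle of the order was held by *Sod1*, *Cat* and *Gpx3*. *Sod1* (ENSMUSG00000022982, chr16:90220754-90226329), the cytosolic copper-zinc dismutase, had a median of 31.0 CPM per kb, *Cat* (ENSMUSG00000027187, chr2:103453849-103485160), the peroxisomal catalase, 27.3, and *Gpx3* (ENSMUSG00000018339, chr11:54902453-54910377), the secreted plasma form, 25.9. Their order changed between lines: *Gpx3* led them in the HEM1 line and came last of the 3 in the other lines, and their ranges overlapped throughout. *Gpx4* (ENSMUSG00000075706, chr10:80047166-80056439), which reduces lipid hydroperoxides in membranes, had 22.1 CPM per kb and was ranked 7 in every line.

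At the foot of the order were *Sod2*, *Sod3* and *Nnt*, in that order in every line. *Sod2* (ENSMUSG00000006818, chr17:13006846-13040063), the manganese dismutase of the mitochondrial matrix, had a median of 9.15 CPM per kb. *Sod3* (ENSMUSG00000072941, chr5:52363791-52371418), the extracellular dismutase, had 7.26 CPM per kb. *Nnt* (ENSMUSG00000025453, chr13:119335448-119408997) had 4.71 CPM per kb, and its raw level ran from 18.8 to 81.4 CPM with a median of 33.1. The overlap of their ranges means that this order holds for medians and not library by library. The spread within a gene was widest for *Prdx6*, whose highest library was 17.5 times its lowest, followed by *Sod3* (14.7 times) and *Gpx2* (12.7 times), and narrowest for *Gpx1* (2.59 times) and *Cat* (2.91 times).

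**Figure D1:**
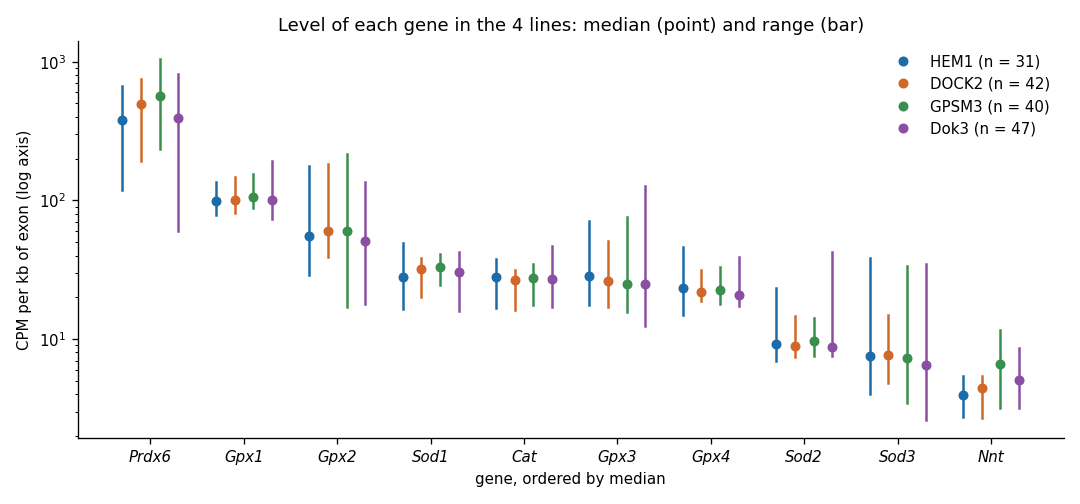
The plot shows CPM per kb of exon on a log axis for each of the 10 genes in the 4 lines, with the median as a point and the lowest to highest library as a bar. *Prdx6* lies highest and *Nnt* lowest in each line, and the bars of *Sod3* and *Gpx2* are long beside those of *Gpx1*.

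*Nnt* was the member whose level differed most clearly between lines. Among wild-type males it ran from 20.5 to 35.2 CPM with a median of 25.99 in the HEM1 line (n = 7). In the DOCK2 line it ran from 18.8 to 36.3 CPM with a median of 30.1 (n = 12). In the GPSM3 line it ran from 26.9 to 81.4 CPM with a median of 49.2 (n = 20), and in the Dok3 line from 22.4 to 59.6 CPM with a median of 33.5 (n = 21). GPSM3 libraries therefore reached levels that no library of another line reached, while the ranges of all 4 lines overlapped at their lower ends. *Nnt* was higher in the GPSM3 line than in the HEM1 line by 0.98 on the log2 scale (SE 0.20, adjusted p = 0.00467, edgeR's quasi-likelihood test). It was the only member called there, where 1.94% of all genes tested were called. Against the DOCK2 line it was higher by 0.82 (SE 0.16, adjusted p = 0.0136), again as the only member, with 0.189% of all genes called. This call was lost with limma-voom (adjusted p = 0.0985). In bulk tissue fewer cells of a type and less RNA per cell cannot be told apart, for these and all later results.

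The strain labels did not order the lines by *Nnt*. The Dok3 line, labelled 129, had less *Nnt* than the GPSM3 line, labelled C57BL6/J (log2 difference -0.56, SE 0.13, adjusted p = 0.00137). It was 0.43 above the HEM1 line (SE 0.19, adjusted p = 0.189) and 0.26 above the DOCK2 line (SE 0.15, adjusted p = 0.389), without passing the threshold. Called members numbered 0 in both of these contrasts, also with DESeq2 and limma-voom, where edgeR called 5.63% and 5.33% of all genes and 3757 and 3442 genes had an unadjusted p under 0.05. Between the DOCK2 and HEM1 lines 0 members were called, also with DESeq2 and limma-voom, with 0.0459% of all genes called and 1619 genes at an unadjusted p under 0.05. The DOCK2 and GPSM3 lines shared labelled strain, dose and collection day, so these labels did not differ in the contrast between them. The HEM1 line stood apart in collection day and, by the study's methods, in dose, and the Dok3 line in strain and dose. These cannot be told apart from line, and each sample-number run lay within 1 line.

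Among knockout males *Nnt* was again higher in the GPSM3 than in the HEM1 line (0.64, adjusted p = 0.0111), and the Dok3 line stood higher than among wild types. Its *Nnt* was 0.53 above the HEM1 line (adjusted p = 0.00456) and 0.44 above the DOCK2 line (adjusted p = 0.0404), whereas the difference from the GPSM3 line was -0.11 (adjusted p = 0.591) and that between the GPSM3 and DOCK2 lines was 0.55 (adjusted p = 0.165). The DOCK2 and HEM1 lines differed by 0.09 (adjusted p = 0.852). With neutrophil and epithelium scores as covariates, the wild-type differences of *Nnt* between the GPSM3 line and the HEM1, DOCK2 and Dok3 lines kept their calls at 0.76, 0.73 and -0.45 on the log2 scale (the last as Dok3 minus GPSM3). With skin and striated muscle scores as covariates they were 1.00, 0.87 and -0.51, all called.

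*Sod1* and *Prdx6* also differed between the Dok3 and GPSM3 lines. *Sod1* ran from 82.1 to 167 CPM with a median of 108 in Dok3 wild-type males and from 105 to 164 CPM with a median of 134 in GPSM3 wild-type males. *Prdx6* ran from 789 to 3946 CPM with a median of 1759 in the former and from 1128 to 4132 CPM with a median of 2781 in the latter. Both pairs of ranges overlapped almost fully. The log2 differences were -0.21 for *Sod1* (SE 0.07, adjusted p = 0.0164) and -0.53 for *Prdx6* (SE 0.16, adjusted p = 0.0124), so that 3 of 10 members were called, all lower in the Dok3 line, in a contrast that called 27.2% of all genes (11.5% lower and 15.7% higher in the Dok3 line). In the same contrast 6 of 12 epithelial markers were lower and 6 of 8 fibroblast markers, 4 of 10 adipocyte markers and 3 of 8 B and plasma cell markers were higher in the Dok3 line. Of 10 neutrophil markers 2 were also called higher (median log2 difference 2.02), as was 1 of 10 skin markers (1.69) and 1 of 10 striated muscle markers (2.46), and 1 of 10 smooth muscle markers was lower. With neutrophil and epithelium scores in the model the differences were -0.10 for *Sod1* (adjusted p = 0.150) and -0.18 for *Prdx6* (adjusted p = 0.221).

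Other antioxidant genes differed in both directions between these lines. Of all genes, this contrast called 15.7% higher and 11.5% lower in the Dok3 line. In the Dok3 line 4 of 22 genes of the glutathione system were higher and 10 lower than in the GPSM3 line, with a median log2 difference of -0.06 beside 0.01 over all genes. The glyoxalase *Glo1*, which clears methylglyoxal with glutathione, was 0.86 higher, and the glutathione transferase *Gstp1* 0.51 lower (log2 difference -0.51). Of 18 thioredoxin and peroxiredoxin genes 1 was higher and 6 were lower, among them the mitochondrial peroxiredoxin *Prdx3* (-0.28) and its partner *Txn2* (-0.25). Of 7 copper supply genes 3 were lower, including *Ccs*, the chaperone that loads copper into *Sod1* (-0.26). Of 16 NADPH sources 3 were higher and 2 lower, of 20 Nrf2 pathway genes 4 and 7, and of 9 selenoprotein synthesis genes 0 and 2. The counts of NADPH sources lie near the shares of all genes. *Glo1* was also higher in the Dok3 line than in the HEM1 line (0.85) and the DOCK2 line (0.84). *Bach1*, which represses Nrf2 targets, was lower than in the HEM1 line in both the GPSM3 line (-0.61) and the Dok3 line (-0.70).

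**Figure D2:**
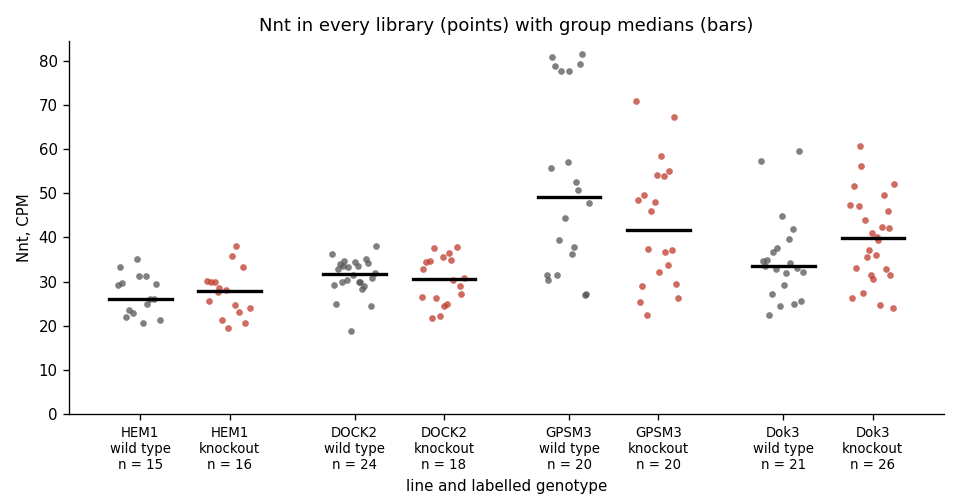
The plot shows *Nnt* in CPM for every library, by line and labelled genotype, with the group median as a bar. GPSM3 libraries span 22.5 to 81.4 CPM, and 6 wild-type libraries of that line lie between 77.6 and 81.4 CPM, above a gap.

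Within the GPSM3 line *Nnt* was spread more widely than in any other line. Of its 20 wild-type libraries, 6 lay between 77.6 and 81.4 CPM, the next at 57.1 CPM, and the lowest at 26.9 CPM. Of its 20 knockout libraries, the highest were at 70.9 and 67.2 CPM, the next at 58.5 CPM and the lowest at 22.5 CPM. The sample-number runs differed, with 10 libraries of each genotype in each run. Wild types had a median of 42.7 CPM in run 1 (highest 77.7) and 65.0 CPM in run 2 (highest 81.4). Knockouts had a median of 49.9 CPM in run 1 (highest 70.9) and 37.3 CPM in run 2 (highest 54.9). After a straight line on the neutrophil score described below was taken off, the residual SD of log2 *Nnt* was 0.50 in GPSM3, 0.29 in Dok3, 0.14 in HEM1 and 0.10 in DOCK2. The ratio of the GPSM3 to the DOCK2 residual SD was 5.07 for *Nnt*, rank 2 among 17208 genes, whose median ratio was 1.19. These are the lines of highest and lowest residual SD for *Nnt* itself, and all genes were ranked on this same pair. The rank therefore owes part of its height to the choice of lines and is no test. This ratio joined a high SD in the GPSM3 line (percentile 84.0 of all genes) to a low one in the DOCK2 line (percentile 8.51). *Gpx2* had a larger SD than *Nnt* in both lines (0.73 in GPSM3 and 0.40 in DOCK2), and *Sod3* had 0.43 and 0.21, *Prdx6* 0.35 and 0.27, *Sod1* 0.15 and 0.16 and *Gpx1* 0.12 and 0.13.

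The residuals of *Nnt* were cut at the 2 widest gaps in every line, which by construction gives 3 stretches in each. In the GPSM3 line these gaps were 0.21 and 0.13 on the log2 scale. The lowest 10 libraries had residuals of -0.94 to -0.45 (7 knockout, 3 wild type, 5 in each run), 19 had residuals of -0.24 to 0.31 (9 knockout, 10 wild type), and 11 had residuals of 0.43 to 0.70 (4 knockout, 7 wild type). In the other lines, whose residual SD was smaller, the gaps were narrower on the log2 scale and 1 stretch held most libraries. It held 28 of 31 in HEM1 (gaps 0.07 and 0.08), 38 of 42 in DOCK2 (0.06 and 0.06) and 41 of 47 in Dok3 (0.10 and 0.10). Gaps widen with the residual SD (0.50 in GPSM3, 0.29 in Dok3, 0.14 in HEM1 and 0.10 in DOCK2). Their widths therefore do not show that GPSM3 libraries fall into separate groups. Each stretch of the GPSM3 line held both genotypes and both runs, and no test was made of the number of stretches. The *Nnt* alleles of the mice are not in the labels, and their part in this spread was not tested.

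Genes next to *Nnt* had rank correlations with it that ran from -0.76 to 0.52 over the 4 lines. Within 1 Mb on chromosome 13, 10 other genes passed the filter in all lines. In the Dok3 line, after the neutrophil line was taken off, Spearman's rho with *Nnt* was -0.76 for *4833420G17Rik*, -0.68 for *Tmem267*, -0.61 for *Gm9752*, -0.52 for *Paip1*, -0.48 for *Zfp131* and -0.44 for *Mrps30*, and 0.37 for *Fgf10* (47 libraries). In the HEM1 line *4833420G17Rik* had 0.51, *Gm9752* 0.30, *Hmgcs1* -0.32 and *Zfp131* -0.43 (31 libraries). In the GPSM3 line *4833420G17Rik* had 0.45 and *Gm9752* 0.52 (40 libraries), and in the DOCK2 line all 10 lay between -0.17 and 0.21 (42 libraries). *Dok3* itself also lies on chromosome 13, as *Gpx3* and *Dock2* share chromosome 11 and *Sod2* and *Gpsm3* share chromosome 17. These are descriptions over libraries that share depth and tissue makeup.

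Knockout and wild-type colons were compared within each line to ask whether loss of a predicted regulator of colitis changed these enzymes. Called members numbered 0 of 10 in every line (edgeR, Benjamini-Hochberg over all genes tested), also with DESeq2 and limma-voom. In the HEM1 line 0.00526% of all genes were called and 877 genes had an unadjusted p under 0.05. In the DOCK2 line the share was 0.0333% with 946 such genes, in the GPSM3 line 0.00569% with 854, and in the Dok3 line 0% with 386. The largest estimate of any member was 0.26 on the log2 scale in HEM1 (*Prdx6*, lower in the knockout), 0.13 in DOCK2 (*Gpx2*), 0.27 in GPSM3 (*Sod3*) and 0.16 in Dok3 (*Nnt*). The 95% intervals of the members reached from -0.77 to 0.55 in HEM1, from -0.28 to 0.45 in DOCK2, from -0.59 to 0.69 in GPSM3 and from -0.62 to 0.45 in Dok3. Changes outside these bounds lay beyond the 95% interval of every member. The bounds come from the members of widest interval, and SEs ran from 0.08 to 0.30 in HEM1, 0.05 to 0.16 in DOCK2, 0.05 to 0.28 in GPSM3 and 0.08 to 0.26 in Dok3.

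*Nnt* had estimates of opposite sign in the GPSM3 and Dok3 lines. In the GPSM3 line it ran from 22.5 to 70.9 CPM with a median of 41.6 in knockouts and from 26.9 to 81.4 CPM with a median of 49.2 in wild types (log2 change -0.27, SE 0.16, adjusted p = 0.936). In the Dok3 line it ran from 23.9 to 60.7 CPM with a median of 39.8 in knockouts and from 22.4 to 59.6 CPM with a median of 33.5 in wild types (0.16, SE 0.11, adjusted p = 1.00). In both lines the genotypes overlapped over nearly their whole range. The HEM1 medians were 27.8 CPM in knockouts and 25.99 CPM in wild types (0.03, SE 0.10) and the DOCK2 medians 30.5 and 31.7 CPM (-0.03, SE 0.07).

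A permutation test of mean log2 CPM that rests on no count model was run for *Nnt*. The difference was -0.25 in the GPSM3 line (two-sided p = 0.149, adjusted over the 4 lines 0.297) and 0.17 in the Dok3 line (p = 0.114, adjusted 0.297). It was -0.04 in the DOCK2 line (p = 0.549) and 0.01 in the HEM1 line (p = 0.877). Within sample-number runs the GPSM3 difference was -0.48 in run 2 (permutation p = 0.0480, adjusted over 7 runs 0.168) and -0.02 in run 1. The Dok3 difference was 0.36 in run 2 (exact permutation p = 0.0267, adjusted 0.168) and 0.06 in run 1. In the HEM1 line the runs differed in sign (-0.15, 0.24 and -0.02). A run carried most of the difference in both the GPSM3 and the Dok3 line, and none passed after adjustment.

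**Figure D3:**
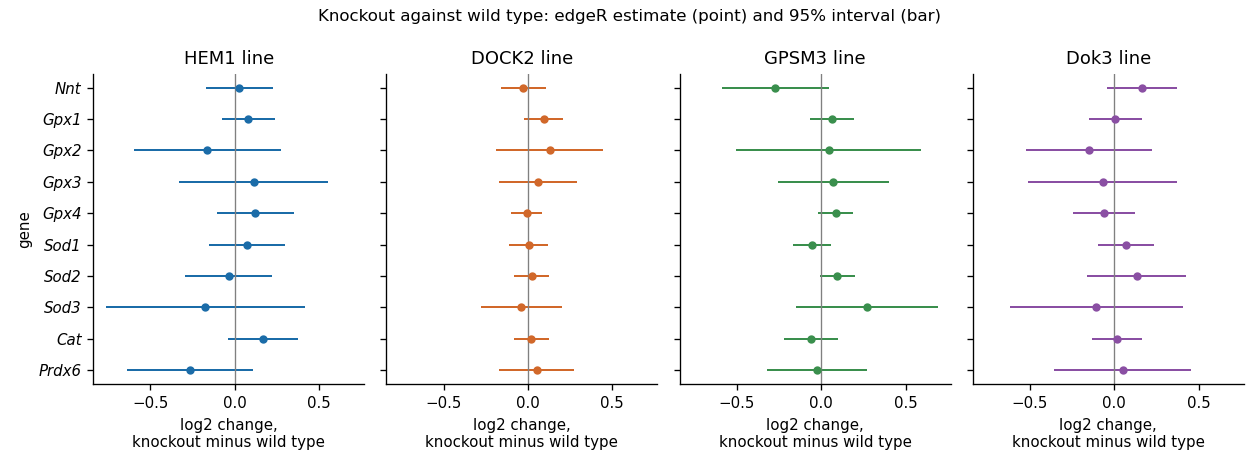
The plot shows the log2 change of each gene, knockout minus wild type, with its 95% interval, in a panel for each line. Every interval includes 0, and *Nnt* lies at -0.27 in the GPSM3 panel and 0.16 in the Dok3 panel.

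The genotype effect was then tested for differences between lines and sexes. A joint test of genotype by line called 0 members (144 genes or 0.718% of all, 1154 at an unadjusted p under 0.05, limma-voom 0 members), and *Nnt* had the smallest adjusted p among members at 0.864. Genotype by sex called 0 members in the HEM1 line (0% of all genes, 725 at an unadjusted p under 0.05) and 0 in the DOCK2 line (0.321%, 873), also with limma-voom. The widest sex difference in a genotype effect was that of *Sod3* in the HEM1 line, at -1.17 on the log2 scale (SE 0.62, adjusted p = 1.00). The 6 lists of related genes (glutathione, thioredoxin, NADPH, Nrf2, selenoprotein and copper genes, 87 in all) likewise held 0 called genes in each of the 4 knockout comparisons.

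*Gpx2* was higher in males than in females of the DOCK2 line. It ran from 126 to 297 CPM with a median of 166 in 20 females and from 140 to 587 CPM with a median of 225 in 22 males, and most libraries of the sexes overlapped. The log2 difference was 0.55 (SE 0.16, adjusted p = 0.0237, edgeR), the only one of 10 members called, where 9.79% of all genes were called. With the neutrophil score as a covariate it was 0.24 (adjusted p = 0.210). In the same comparison 6 of 22 glutathione genes were higher in males, among them *Mgst1* (0.35), a microsomal glutathione transferase, and 4 of 20 Nrf2 pathway genes, among them *Nqo1* (0.54), a quinone reductase. Of 16 genes on the list of NADPH sources 3 were higher, including the mitochondrial folate gene *Mthfd1l* (0.55). Of 12 epithelial markers 3 were also higher in males. In the HEM1 line *Gpx2* was 0.64 higher in males (SE 0.23, adjusted p = 0.182) and *Cat* 0.30 lower (log2 difference -0.30, SE 0.11, adjusted p = 0.18), and 0 members were called with edgeR, DESeq2 or limma-voom (0.237% of all genes, 3167 at an unadjusted p under 0.05).

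Sample-number runs moved some members as much as sex did. In the HEM1 line *Gpx2* had a median of 160 CPM in run 1, 308 in run 2 and 185 in run 3 (adjusted p = 0.0250), and *Cat* had 78.4, 59.4 and 71.9 CPM (adjusted p = 0.0307), where 37.3% of all genes were called. Run 2 thus held the highest *Gpx2* and the lowest *Cat*, and all 9 of its mice were male, so run and sex are partly confounded in this line. In the GPSM3 line *Prdx6* was lower in run 2 by 0.47 (log2 difference -0.47, SE 0.14, adjusted p = 0.0232) and *Sod3* higher by 0.60 (SE 0.19, adjusted p = 0.04998), where 7.88% of all genes were called, and with limma-voom *Sod3* had adjusted p = 0.0624. In the Dok3 line 0 members were called (0.143% of all genes, 1224 at an unadjusted p under 0.05, limma-voom 0).

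Because treatment was not labelled, the level of neutrophil transcripts was used as a continuous measure in each library. The score was the mean log2 CPM of 10 neutrophil markers (*S100a8*, *S100a9*, *Csf3r*, *Cxcr2*, *Retnlg*, *Mmp8*, *Fpr1*, *Stfa2l1*, *Il1r2* and *Trem1*), so that 1 unit is about a doubling of markers well above 0 counts and less than that for markers near 0, such as *Stfa2l1*, which had no count in 83 libraries. Subtracting the line mean before the fits within a line left the slopes as they were. It spanned 7.95 units in HEM1, 8.93 in DOCK2, 7.81 in GPSM3 and 10.7 in Dok3 libraries. The largest gap between neighbouring libraries was 2.88 units, below the highest DOCK2 library. Summed neutrophil markers ran from 1.57 to 9729 CPM over all libraries. No library was assigned to a treatment by it.

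Most members moved with this score in 2 opposed groups. In all 4 lines *Sod3*, *Gpx3*, *Gpx2* and *Gpx1* were higher, and *Prdx6*, *Nnt*, *Sod1* and *Cat* lower, in libraries with more neutrophil transcripts. Called members numbered 9 of 10 in the HEM1 line, where 45.9% of all genes were called: 5 had positive slopes (21.1% of all genes) and 4 negative slopes (24.8%). In the DOCK2 line 8 members were called beside 54.4% of all genes, 4 positive (28.6%) and 4 negative (25.8%). In the GPSM3 line 10 were called beside 52.9%, 6 positive (30%) and 4 negative (22.8%). In the Dok3 line 10 were called beside 61.9%, 6 positive (35.4%) and 4 negative (26.6%). So large a share of all genes moved with the score that the count by itself says little about these enzymes.

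*Sod3* had the steepest positive slope of the members in 2 lines. Its slopes were 0.30 log2 units per unit of score in HEM1 (SE 0.02, adjusted p = 1.11e-11), 0.17 in DOCK2 (SE 0.02), 0.22 in GPSM3 (SE 0.03) and 0.29 in Dok3 (SE 0.01, adjusted p = 2.62e-22). In the Dok3 line *Sod3* stood at 18.2 CPM in the library of the lowest score and at 114 CPM in that of the highest. *Gpx3* followed with slopes of 0.21, 0.16, 0.19 and 0.24 in the HEM1, DOCK2, GPSM3 and Dok3 lines, from 28.5 to 230 CPM between the same Dok3 libraries. *Gpx2* had slopes of 0.13, 0.19, 0.26 and 0.14 in the same order, the steepest of all members in the DOCK2 and GPSM3 lines, and *Gpx1* a shallow and even 0.06, 0.08, 0.08 and 0.08.

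The mitochondrial and membrane forms moved unevenly. *Sod2* had slopes of 0.11 in HEM1 (adjusted p = 1.62e-06), 0.02 in DOCK2 (adjusted p = 0.264), 0.04 in GPSM3 (adjusted p = 0.000225) and 0.14 in Dok3 (adjusted p = 5.56e-12). *Gpx4* was the flattest member in HEM1 (0.04, adjusted p = 0.153), DOCK2 (0.00, adjusted p = 0.864) and GPSM3 (0.03, adjusted p = 0.0383). In Dok3 its slope was 0.07 (adjusted p = 5.65e-05), and *Cat* was flatter there. With the epithelium score in the same model *Gpx4* was called in neither the GPSM3 nor the Dok3 line (0.01 in each, adjusted p = 0.583 and 0.602).

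**Figure D4:**
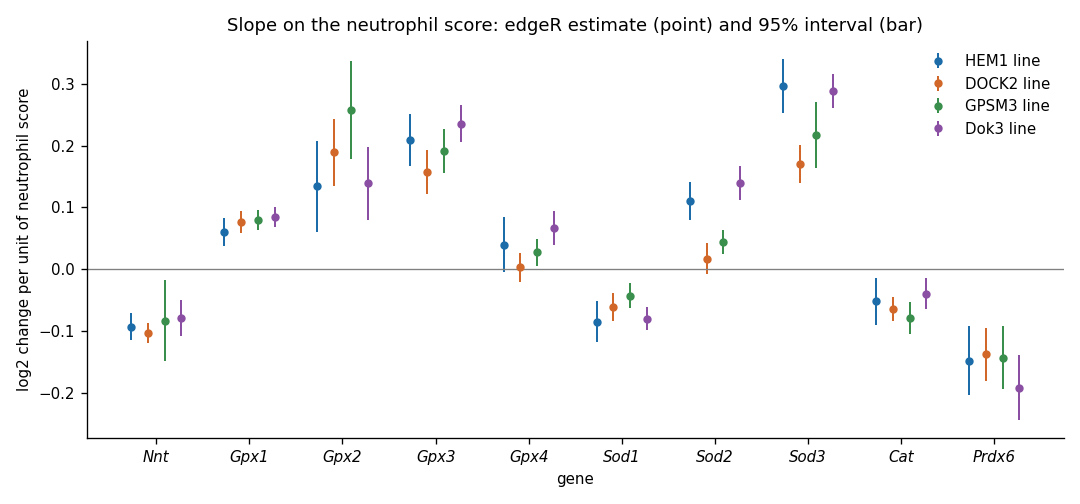
The plot shows the log2 change per unit of neutrophil score for each gene, with its 95% interval, coloured by line. *Sod3*, *Gpx3*, *Gpx2* and *Gpx1* lie above 0 and *Nnt*, *Sod1*, *Cat* and *Prdx6* below 0 in all 4 lines.

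*Prdx6* fell most steeply with the score. Its slopes were -0.15 in HEM1 (SE 0.03), -0.14 in DOCK2 (SE 0.02), -0.14 in GPSM3 (SE 0.03) and -0.19 in Dok3 (SE 0.03), and its level in the Dok3 libraries of lowest and highest score was 2682 and 622 CPM. *Nnt* had slopes of -0.09, -0.10, -0.08 and -0.08 in the same order of lines (adjusted p = 7.99e-08, 7.09e-14, 0.0329 and 1.47e-05). In the DOCK2 line it stood at 38.0 CPM in the library of the lowest score, its highest value, and at 18.8 CPM in that of the highest score, its lowest. *Sod1* had slopes of -0.09, -0.06, -0.04 and -0.08 and *Cat* -0.05, -0.06, -0.08 and -0.04, all called. A joint test found that the slopes of *Sod2* (adjusted p = 8.11e-07) and *Sod3* (adjusted p = 0.00683) differed between lines, 2 members where 10.7% of all genes were called, while *Nnt* had adjusted p = 0.949 and *Prdx6* 0.541.

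**Figure D5:**
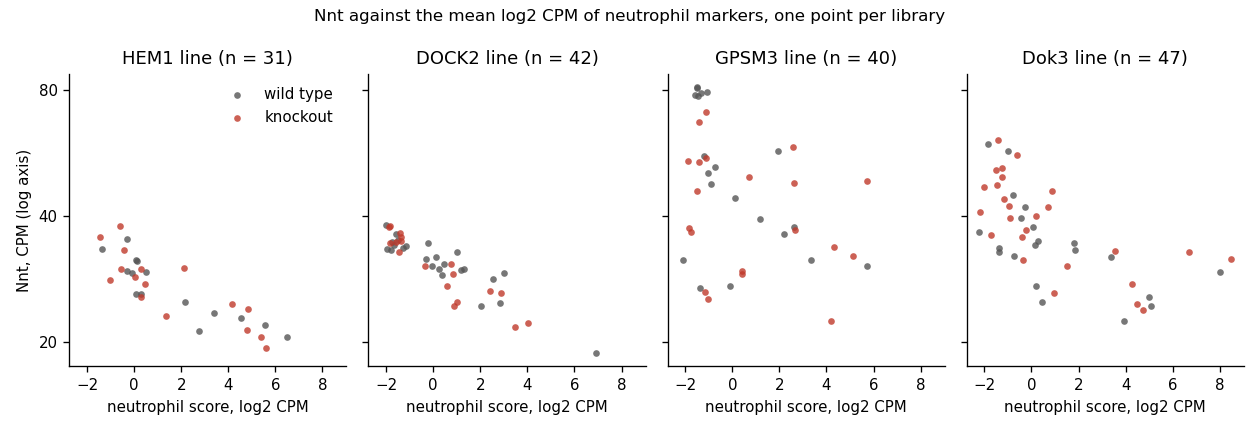
The plot shows *Nnt* in CPM on a log axis against the neutrophil score, with a point for each library and a panel for each line, coloured by labelled genotype. *Nnt* falls with the score in a narrow band in the HEM1 and DOCK2 lines, whose residual SD is 0.14 and 0.10 on the log2 scale, and is widely scattered in the GPSM3 line at 0.50.

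Other cell types moved with the same score. In each line all 10 macrophage markers were higher with more neutrophil transcripts, and 6 to 8 of 8 fibroblast markers were too. Epithelial markers were lower in the HEM1 and Dok3 lines (9 of 12 in each) and mixed in the DOCK2 line (3 higher, 3 lower) and GPSM3 line (1 higher, 3 lower). Skin markers rose with the score in 10 of 10 cases in the DOCK2 and Dok3 lines, in 9 in the GPSM3 line and in 0 in the HEM1 line. Striated muscle markers were higher in 7 of 10 cases in DOCK2, 5 of 7 tested in GPSM3, 8 of 10 in Dok3 and 0 of 10 in HEM1. Smooth muscle markers were lower in 4, 5, 10 and 1 of 10 cases in HEM1, DOCK2, GPSM3 and Dok3 libraries. With the epithelium score in the same model the slopes of *Nnt* were -0.09, -0.10, -0.10 and -0.09 in the HEM1, DOCK2, GPSM3 and Dok3 lines, and all were called. Those of *Prdx6* were -0.07, -0.13, -0.11 and -0.10 and also kept their calls. With skin and striated muscle scores in the model *Nnt* in the GPSM3 line had -0.09 with adjusted p = 0.0723, and the other 3 lines kept their calls.

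Genes of the supporting pathways moved with the score in both directions, as 28.6% of all genes were higher and 25.8% lower in the DOCK2 line. There 9 of 22 glutathione genes were higher and 5 lower, 8 and 4 of 18 thioredoxin genes, 9 and 3 of 16 NADPH sources and 12 and 1 of 20 Nrf2 pathway genes. In HEM1 (21.1% and 24.8% of all genes) the counts were 5 and 6, 5 and 5, 5 and 2, and 6 and 1 in the same order of lists. In GPSM3 (30% and 22.8%) they were 9 and 7, 7 and 3, 11 and 1, and 9 and 4, and in Dok3 (35.4% and 26.6%) 11 and 6, 9 and 3, 9 and 4, and 11 and 1. Several of these counts lie near the shares of all genes. The cystine transporter *Slc7a11* had the steepest slopes of the genes named here, 0.59 in the HEM1, 0.44 in the DOCK2, 0.46 in the GPSM3 and 0.61 in the Dok3 line, and rose from 4.21 to 411 CPM over the Dok3 libraries. *Hmox1*, which degrades heme, had 0.36, 0.43, 0.29 and 0.44 in the same order. The glutathione reductase *Gsr* (0.10, 0.11, 0.14 and 0.08) and the NADPH-yielding *G6pdx* (0.09, 0.13, 0.09 and 0.10) and *Pgd* (0.08, 0.10, 0.11 and 0.07) were higher with the score in every line. Not all listed genes rose: *Hagh* was lower with the score in every line (-0.08, -0.11, -0.10 and -0.04, all called). *Nnt*, a mitochondrial source of NADPH, was lower. The mitochondrial folate gene *Mthfd1l*, on the list of NADPH sources, was higher in the DOCK2 (0.13), GPSM3 (0.11) and Dok3 (0.08) lines. In the HEM1 line *Mthfd1l* was not called (0.03). NADPH supply was not tested.

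Selenium and copper genes also moved both ways. Of 9 selenoprotein synthesis genes 0 were higher and 4 lower in HEM1, 0 and 3 in DOCK2, 3 and 3 in GPSM3 and 1 and 3 in Dok3. Of 7 copper supply genes 3 were higher and 2 lower in HEM1, 3 and 2 in DOCK2, 3 and 1 in GPSM3 and 4 and 3 in Dok3. Of all genes, 21.1% were higher and 24.8% lower in HEM1, and 28.6% and 25.8% in DOCK2. The shares were 30% and 22.8% in GPSM3 and 35.4% and 26.6% in Dok3. With lists this short the counts by themselves say little. *Selenop*, the selenium carrier of plasma, had slopes of -0.12, -0.15, -0.17 and -0.10 in the HEM1, DOCK2, GPSM3 and Dok3 lines. *Sepsecs* and *Pstk*, which make the selenocysteine tRNA, had -0.10, -0.06, -0.07 and -0.07 and -0.08, -0.07, -0.04 and -0.05. All were called, in libraries where the selenoproteins *Gpx1*, *Gpx2* and *Gpx3* were higher, and selenium supply was not tested. *Ccs*, the copper chaperone of *Sod1*, had -0.11, -0.05, -0.08 and -0.06, the same sign as *Sod1*. The copper chaperone *Atox1* (0.09 in HEM1, 0.06 in GPSM3 and 0.10 in Dok3) and the metallothionein *Mt2* went the other way, and *Mt2* was higher with the score in each line (0.20, 0.22, 0.26 and 0.27). In the DOCK2 line *Atox1* was not among the 3 genes of smallest adjusted p of its list. Its slope there is not reported here.

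Members were also described by the genes whose levels ran most like theirs over the 160 libraries, by Spearman's rho of log2 CPM with line means removed. These libraries share tissue makeup and depth, and no test was made. *Prdx6* ran most like *Phlpp2* and *Slc26a3* (0.92 each), the latter a chloride transporter of colon surface epithelium. *Gpx2* ran like *Lrrc59* (0.91), *Ptbp1* and *Rpn1*, genes used in protein synthesis and RNA handling. *Sod3* ran like *Igfbp4* and *Col4a2* (0.91 each) and *Gpx3* like *Hp* (0.87) and *Igfbp4*. *Sod1* ran like *Entpd5* (0.86), *Cat* like *Aldh6a1* (0.81) and *Ppara*, the receptor that governs fatty acid oxidation, and *Gpx1* like *Arpc3* (0.90). *Gpx4* and *Sod2* shared the mitochondrial and peroxisomal peroxiredoxin *Prdx5* as their closest gene (0.73 and 0.71).

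The closest genes of *Nnt* had values near those of *Gpx4* and *Sod2*, below those of the other members. Among its closest genes with line means removed, rho was 0.71 for ENSMUSG00000020068, *Gm16576*, *Phlpp1* and *Gm26767*. Over the 160 libraries without removing line means, values among the closest were 0.69 for *Gm26767*, 0.66 for *Prdm9*, 0.65 for *Ikbkg* and 0.64 for *Cyp4f13*. Among the members themselves *Gpx3* and *Sod3* were the closest pair (0.81), followed by *Sod1* and *Prdx6* (0.76) and by *Gpx1* and *Gpx2* (0.69), while *Sod1* and *Sod3* were the most opposed (-0.74). *Nnt* was closest to *Prdx6* (0.53) and *Sod1* (0.50) and most opposed to *Sod3* (-0.60).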

How the data were processed

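Counts were deposited by the authors as raw, unnormalized counts for 39179 Ensembl genes in each of 160 samples, made from stranded, ribosome-depleted, single-end libraries. The submitters' processing notes name STAR, featureCounts (Subread) and mm10. Their versions and the strand setting are not given in the sources used here. *Gpx2* overlaps *Fntb* and *Sod1* overlaps *Scaf4* on the opposite strand, and *Gpx2* and *Prdx6* have near-identical copies (*Gpx2-ps1*, *Prdx6-ps2*, *Prdx6b*), so reads of these genes may be shared. Gene names, positions and exon lengths came from a GENCODE annotation of GRCm38, which matched 37693 genes and 99.7% of counts. Groups follow the labels. The 10 genes and all lists were chosen with earlier results of these data known.

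The main test was edgeR's quasi-likelihood F test (edgeR 4.0.16, R 4.3.3) on TMM-scaled counts of the genes that filterByExpr kept. Fits of the HEM1 and DOCK2 lines had a term for sex. The Benjamini-Hochberg adjustment ran over all genes tested, with a threshold of 0.05. Each line was fitted on its own. Line differences came from a fit of wild-type males, and neutrophil slopes from fits with genotype and sex. Log2 CPM used a prior count of 2. Permutation tests drew 100000 resamples, or all where a group had fewer than 10 samples. Nothing in the labels says that samples of a group came from separate cages or litters, so p-values measure the spread between these samples. Alternatives were limma-voom (limma 3.58.1), which the study used, DESeq2 1.42.0, no filter, other covariates and left-out libraries, some of them chosen after seeing the data (skin and muscle scores, fits within runs, libraries of doubtful label or depth). Fits were tested on simulated counts with known changes. Of changes of 1 on the log2 scale edgeR recovered 36% for GPSM3 against HEM1 wild-type males. It recovered 55.4% in the HEM1 and 92.7% in the Dok3 knockout comparison. Of slopes of 0.2 on the neutrophil score in the DOCK2 line it recovered 82.7%. The changed genes were drawn from all genes tested. Over all genes, many changes of that size would thus be missed in the HEM1 comparisons. The members had SEs of 0.08 to 0.30 in the HEM1 knockout comparison, and these rates need not hold for them. Named genes were the 10 members, the 3 genes of smallest adjusted p in each list and comparison, and the genes closest in Spearman's rho (5 for *Nnt*, 3 for each other member). Of these, the text gives a selection, and some genes close to *Nnt* are not reported here.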

Additional observations from a re-analysis of the deposited data

Results flagged for a closer look

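6 CPM values stood far from the rest of their group by Dixon's criterion, among 50 sets of values searched (a gene in a group of 4 to 10 samples), where chance flags about 1 in 20 groups. In DOCK2 knockout females *Gpx3* reached 92.1 CPM (next 53.4) and *Sod3* 56.0 CPM (next 35.5), both in replicate 13, which had the highest neutrophil score of its group at 4.04. In DOCK2 knockout males *Gpx4* reached 54.6 CPM and *Sod2* 111 CPM (next 98.5), both in replicate 8. In HEM1 wild-type males *Sod2* reached 232 CPM (next 133) and *Sod3* 143 CPM (next 66.3), both in replicate 10, which had the highest neutrophil score of the line at 6.50. The slope on the neutrophil score differed between lines for *Sod2* (adjusted p = 8.11e-07) and *Sod3* (adjusted p = 0.00683) in a joint edgeR test.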

How the results depend on the processing

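Most values kept their direction and their side of the threshold: 140 alternative values of summary results did so beside 13 that moved and 2 that reversed, and for single genes 444 beside 46 weaker, 2 stronger and 4 reversed. In the line differences, neutrophil and epithelium scores as covariates gave 2 called members for GPSM3 against HEM1, 2 for Dok3 against HEM1 and 1 for Dok3 against DOCK2. Among knockout males 1 was called for Dok3 against HEM1, 1 for Dok3 against DOCK2, 0 for GPSM3 against DOCK2 and 0 for Dok3 against GPSM3, which left 1 member called in any line contrast. With limma-voom 0 were called for GPSM3 against DOCK2 and 1 between the GPSM3 runs. With the neutrophil score as a covariate 0 were called between the sexes of the DOCK2 line. Slopes on the neutrophil score called 0 members within run 3 of the HEM1 line (8 libraries) and 6 within run 2 of the Dok3 line (17 libraries), where fewer samples entered. Reversed signs came from *Nnt* in the HEM1 line with run as a covariate (knockout against wild type -0.0092, male against female 0.0423), with limma-voom (male against female 0.0014), in its permutation differences within run 1 (-0.149) and run 3 (-0.0185), and from *Gpx4* in Dok3 run 2 (slope -0.0018). None of these passed a threshold. Beyond fewer samples, the causes were not tested. No paired analysis was possible because the labels give no replicate numbers that groups share. The DOCK2 and HEM1 lines had no library whose sex genes differed from its label, so leaving such libraries out was not run there.

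Counts over all genes depended on the tool. For knockout against wild type edgeR called 1, 6, 1 and 0 genes in the HEM1, DOCK2, GPSM3 and Dok3 lines, DESeq2 25, 94, 4 and 3, limma-voom 0, 0, 1 and 0, and edgeR without the filter 27, 31, 32 and 15, with 0 members in each, which says little where so few genes are called. Genotype by line fell from 144 to 1 gene with limma-voom, and GPSM3 against DOCK2 from 37 to 1. Among knockout males Dok3 against GPSM3 called 2098 genes in place of 5323, and GPSM3 against HEM1 70 in place of 381. For members, depth was not limiting at 121 counts or more in every library.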
